A study of Mus musculus with 14 samples.

Results

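The liver UDP-glycosyltransferases described here were the 7 Ugt2b genes Ugt2b1, Ugt2b5, Ugt2b34, Ugt2b35, Ugt2b36, Ugt2b37 and Ugt2b38, the related gene Ugt2a3, and the Ugt3 genes Ugt3a1 and Ugt3a2. These named genes were found through probes that carry one of their RefSeq accessions, and Ugt2a1, an Ugt2 gene with a probe of its own, was kept among the other glycosyltransferases. This gave 10 genes and 12 probes among 19751 named genes and 39429 probes. Their RNA was measured in the liver of CD-1 mice, an outbred stock, in 6 groups: males aged 3 wk (M3), 4 wk (M4) and 8 wk (M8), and females aged 3 wk (F3), 4 wk (F4) and 8 wk (F8). No group received a treatment. The mice came as 7 day old crl:CD1 pups with surrogate mothers, and each group was represented by separate pools of liver RNA, with 5 mice in a pool at 3 wk and 6 mice in a pool at 4 wk and 8 wk, so the variation between single animals was not measured. A pair of groups was hybridized together on each Agilent array, in 7 comparisons of 2 arrays each, namely males against females at each age (M3/F3, M4/F4, M8/F8) and, within each sex, 8 wk against either younger age (M8/M3 and M8/M4 for males, F8/F3 and F8/F4 for females), with other pools and exchanged dyes on the second array.

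UDP-glucuronosyltransferases are membrane enzymes of the endoplasmic reticulum that join glucuronic acid, taken from UDP-glucuronic acid, to small lipophilic molecules, which makes them soluble enough to leave the body in bile or urine. The Ugt2b enzymes are known for conjugating steroid hormones, bile acids and drugs in the liver, and enzymes of the Ugt3 family are known for using UDP sugars other than UDP-glucuronic acid. Many genes of steroid and drug metabolism differ between the sexes in adult rodent liver, where the pattern of pituitary growth hormone release is a known regulator.

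In the GRCm38.p6 annotation the 8 Ugt2 genes of this set lay within 534 kb of chromosome 5 (chr5:86889770-87424203), and Ugt3a1 and Ugt3a2 lay next to each other within 91.1 kb of chromosome 15 (chr15:9279822-9370955). RefSeq promoter windows of 250 bases before and 50 bases after the start were found for 9 of the 10 genes, and Ugt3a2 had no entry. The 120 bases before the start are shown for the 7 Ugt2b genes, 5′ to 3′ on the strand of the gene, because several of these genes moved together and because the windows show how far the neighbouring copies resemble each other. Capitals mark GTTANNNTTTAAC where it occurs, and the Ugt2b1 window, which lacks an exact match, is shown for comparison.
Ugt2b38, chr5:87424204-87424323, minus strand: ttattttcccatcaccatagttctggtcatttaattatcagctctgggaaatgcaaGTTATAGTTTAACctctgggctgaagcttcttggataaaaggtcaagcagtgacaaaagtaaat
Ugt2b37, chr5:87254789-87254908, minus strand: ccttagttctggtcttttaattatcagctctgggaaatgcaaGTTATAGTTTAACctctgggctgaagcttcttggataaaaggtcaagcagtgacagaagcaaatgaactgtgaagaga
Ugt2b5, chr5:87140341-87140460, minus strand: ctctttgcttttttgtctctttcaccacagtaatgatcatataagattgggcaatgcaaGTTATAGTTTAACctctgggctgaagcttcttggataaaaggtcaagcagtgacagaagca
Ugt2b36, chr5:87092556-87092675, minus strand: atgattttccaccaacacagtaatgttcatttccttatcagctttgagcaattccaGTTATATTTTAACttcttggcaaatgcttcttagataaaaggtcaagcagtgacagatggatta
Ugt2b35, chr5:87000740-87000859, plus strand: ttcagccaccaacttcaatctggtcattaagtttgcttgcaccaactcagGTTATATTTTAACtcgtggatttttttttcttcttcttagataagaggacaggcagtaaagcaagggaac
Ugt2b34, chr5:86906938-86907057, minus strand: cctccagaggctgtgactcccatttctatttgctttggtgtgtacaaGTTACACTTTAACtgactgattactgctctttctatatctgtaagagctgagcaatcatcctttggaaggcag
Ugt2b1, chr5:86926504-86926623, minus strand: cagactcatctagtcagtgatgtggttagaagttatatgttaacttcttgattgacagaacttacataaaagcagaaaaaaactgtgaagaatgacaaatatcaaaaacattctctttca

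The 250 bases before the start of Ugt2b5, Ugt2b37 and Ugt2b38 were 73.0% to 85.2% identical in the 3 pairwise alignments, against 45.7% to 60.4% in the other 33 pairs of members. Near copies of this kind can share hybridization signal. The sequences of the probes were not among the data used here, so cross-hybridization between Ugt2b genes was not tested, and the values of Ugt2b5, Ugt2b37 and Ugt2b38 are uncertain as measurements of single genes. The STAT5 letters, TTCNNNGAA, were on either strand in none of the 9 windows and in 8.33% of all 32544 promoter windows of the same length, and TATAAA was in the Ugt3a1 window and in 13.6% of all windows. The letters GTTANNNTTTAAC were picked after the windows had been read. They were present in the windows of Ugt2b5, Ugt2b34, Ugt2b35, Ugt2b36, Ugt2b37, Ugt2b38 and, on the opposite strand, Ugt3a1, and in 28 of all 32544 windows. An exact match was absent from the Ugt2b1 window, which holds gttatatgttaac, with g in place of a fixed T. Whether these letters bear on expression was not tested.

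The arrays held 43020 spots that were not controls, of which 55.2% to 77.2% per channel were well above background, and no spot was saturated. All 12 member probes were well above background in all 28 channels, with processed intensities of the brightest probe of each gene between 1706 and 174256 arbitrary units, so no ratio of a member is a bound. The Y-linked genes Ddx3y, Uty and Eif2s3y were higher in the male pools and Xist in the female pools in each of the 3 sex comparisons. All 8 hepatocyte markers, Alb among them, were well above background in every group. In whole liver RNA, a smaller share of hepatocytes and less RNA per hepatocyte cannot be told apart.

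The level of each gene in the 6 groups was calculated from the ratios of the arrays and is given as a log2 value relative to the mean of the 6 groups, for each of the 2 sets of pools. In M8 the levels of Ugt2b5 were 1.19 and 1.23, and in F8 they were 0.0045 and -0.07. They were 0.25 and 0.28 in M4, -0.23 and -0.21 in F4, -0.48 and -0.60 in M3, and -0.72 and -0.64 in F3. The order was M8, M4, F8, F4, M3 and F3, and the pools of neighbouring groups did not overlap. Ugt2b36, Ugt2b37 and Ugt2b38 had the same order of groups as Ugt2b5, and only M3 and F3 of Ugt2b37 overlapped.

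Ugt2b1 stood at 0.91 and 0.97 in M8 and at or below 0.04 in every pool of the other 5 groups. M4, F4, M3 and F8 overlapped with their neighbours in that order. Ugt2b35 ran M8, M4, M3, F4, F3 and F8, so the means of the 3 male groups were above those of the 3 female groups and F8 was lowest, at -0.42 and -0.45. M3, at 0.06 and -0.14, overlapped with F4, at -0.23 and -0.12. Ugt2b34 had group means between -0.13 and 0.09, with overlap between most neighbouring groups.

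Ugt2a3, whose human counterpart is known for conjugating bile acids, was highest in F8, at 0.63 and 0.58, followed by M8, at 0.32 and 0.50, and lowest in M3 and F3, which overlapped. Ugt3a2 had the same order of groups as Ugt2a3, with 0.45 and 0.54 in F8 and 0.25 and 0.16 in M8. Ugt3a1 was high in M8, at 0.85 and 0.99, and in F8, at 0.82 and 0.76, and low in M3, at -0.83 and -0.76, and F3, at -0.64 and -0.69. The 8 wk groups were thus the 2 highest for these 3 genes, in both sexes.

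**Figure D1:**
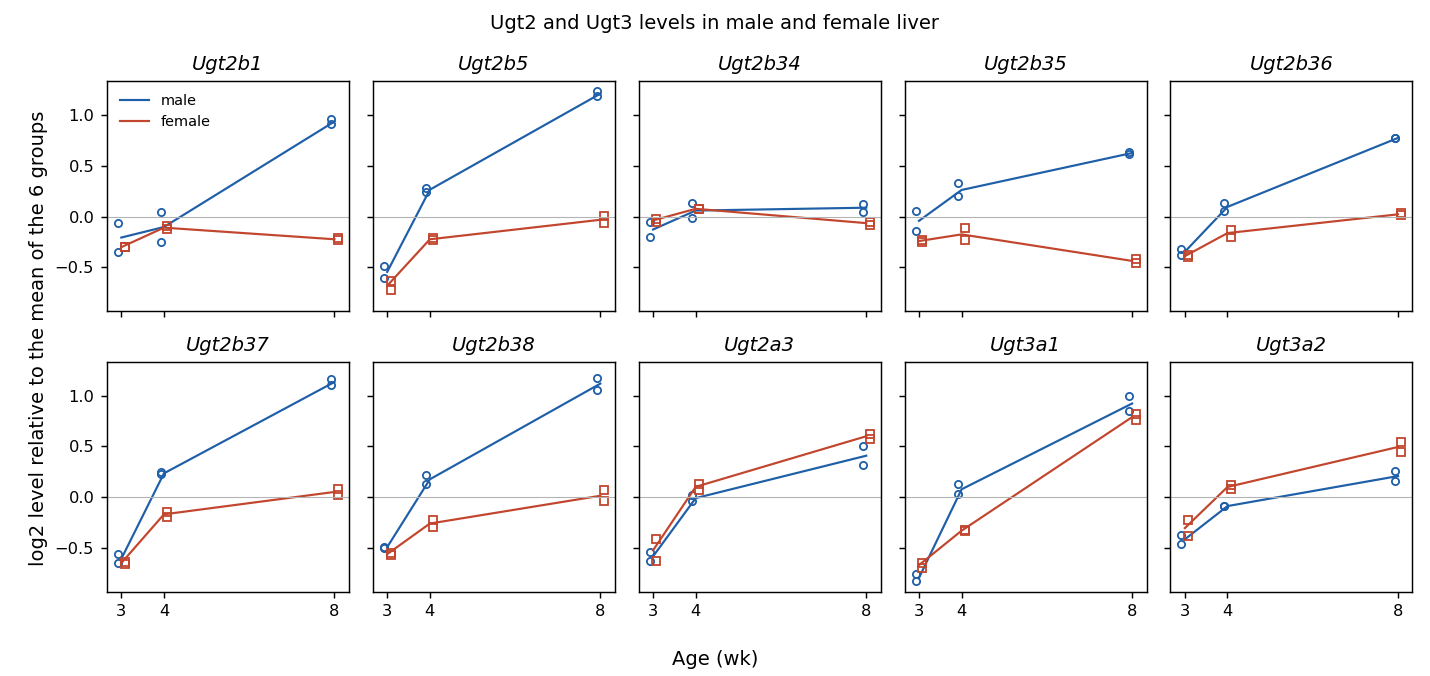
Log2 level of each gene relative to the mean of the 6 groups (vertical axis) against age in wk (horizontal axis) in male and female liver; open symbols are the 2 sets of pools and lines join their means. Ugt2b1, Ugt2b5, Ugt2b35, Ugt2b36, Ugt2b37 and Ugt2b38 separate by sex at 8 wk, while Ugt2a3, Ugt3a1 and Ugt3a2 are higher at 8 wk than at 3 wk in both sexes.

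The sex comparisons address when a difference between male and female liver appears. A gene was called where the adjusted p of the limma fit over all probes was below 0.05, the change was above 1.5-fold in either direction, and 1 or both groups had signals well above background on each array. At 3 wk none of the 10 genes was called in M3/F3 (0.517% of all genes tested were, 0.18% as higher and 0.337% as lower in males), and 1 member, Ugt2b35, had an unadjusted p below 0.05. The values of single arrays lay between -0.31 and 0.39 on the log2 scale. The median of the members was 0.06, against -0.0012 over all genes tested.

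At 4 wk none of the 10 was called in M4/F4 either (1.59% of all genes tested were, 0.619% as higher and 0.971% as lower in males). Of these, 6 had a higher level in males at an adjusted p below 0.05 but by less than 1.5-fold, a criterion without a fold threshold that 7.91% of all genes tested met. Their log2 ratios on the 2 arrays were 0.53 and 0.48 for Ugt2b5, 0.53 and 0.41 for Ugt2b38, 0.45 and 0.43 for Ugt2b35, 0.35 and 0.46 for Ugt2b37, 0.38 and 0.16 for Ugt2b36, and 0.48 and 0.34 for Ugt3a1. All 12 values were above 0. The adjusted p-values of these 6 genes ran from 0.00723 (Ugt2b37) to 0.0244 (Ugt2b36), with changes from 1.21-fold (Ugt2b36) to 1.42-fold (Ugt2b5). With pools of one replicate number taken as shared between comparisons in the covariance (shared pools from here on), Ugt2b5 (adjusted p = 0.400), Ugt2b36 (adjusted p = 0.283), Ugt2b38 (adjusted p = 0.149) and Ugt2b37 (adjusted p = 0.0809) no longer passed. With adjustment within the comparison Ugt3a1 did not pass (adjusted p = 0.0663), nor did Ugt2b5, Ugt2b36 and Ugt2b38, whose unadjusted p-values were larger. Ugt2b1 showed 0.03 and -0.0050, on either side of 0.

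At 8 wk 6 of the 7 Ugt2b genes were higher in males and no member was called as lower (6.42% of all genes tested were called in M8/F8, 2.67% as higher and 3.75% as lower in males). Ugt2b5 had log2 ratios of 1.38 and 1.12 (1.25 ± 0.11 SE, 2.37-fold, adjusted p = 0.000809). Over the alternatives other than leaving out an array, its adjusted p in limma reached 0.0348. Ugt2b1, near 0 at 4 wk, had 1.03 and 1.21 (1.12 ± 0.11, 2.17-fold, adjusted p = 0.00140). Ugt2b37 had 0.98 and 1.15 (2.10-fold, adjusted p = 0.000227). Both arrays of each of these genes were above the 1.5-fold line.

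Ugt2b35 had 1.01 and 1.10 at 8 wk (2.08-fold, adjusted p = 0.000354) and Ugt2b38 had 1.03 and 1.08 (2.08-fold, adjusted p = 0.000961). Ugt2b36 had 0.82 and 0.62 (1.65-fold, adjusted p = 0.000649), the smallest of the 6 called differences. The other Ugt2b gene, Ugt2b34, gave 0.12 and 0.15 (1.10-fold, adjusted p = 0.301). Ugt2a3 gave -0.46 and 0.05 (adjusted p = 0.256) and Ugt3a1 -0.0057 and 0.25 (adjusted p = 0.383), so their arrays fell on both sides of 0. Ugt3a2 was below 0 on both arrays, at -0.19 and -0.47, with an adjusted p of 0.0564. The median log2 ratio of the members was 0.89, against 0.00024 over all genes tested.

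**Figure D2:**
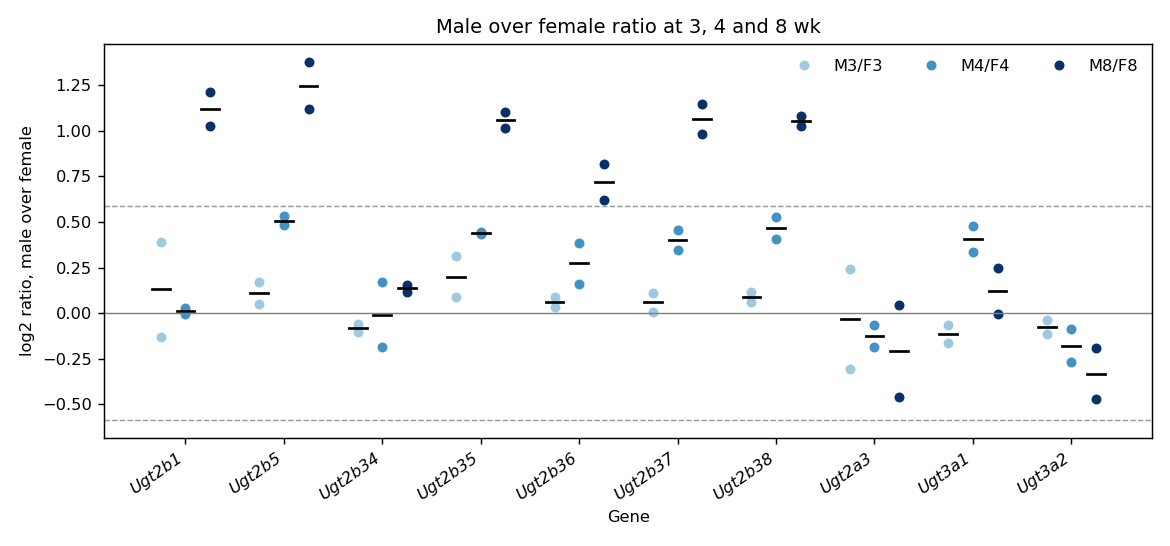
Log2 ratio of male over female liver (vertical axis) for each gene at 3, 4 and 8 wk; points are the 2 arrays of a comparison, black bars the fitted means, and dashed lines 1.5-fold in either direction. At 8 wk both arrays of 6 Ugt2b genes lie above the upper line, between 0.62 and 1.38.

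Over the 7 comparisons 9 of the 10 members were called at least once, all but Ugt2b34 (23.2% of all genes tested were called at least once). The age comparisons of male liver ask which genes change from before puberty to adulthood. From 3 wk to 8 wk 9 of the 10 members rose, all but Ugt2b34, and none fell (17.9% of all genes tested were called in M8/M3, 7.84% as higher and 10% as lower at 8 wk). Ugt2b37 rose by 1.71 and 1.81 on the 2 arrays (1.76 ± 0.06, 3.39-fold, adjusted p = 7.06e-05), Ugt2b5 by 1.49 and 1.97 (3.32-fold, adjusted p = 0.000273), and Ugt3a1 by 1.70 and 1.75 (1.73 ± 0.07, 3.31-fold, adjusted p = 0.000108). Ugt2b38 rose by 1.51 and 1.75 (3.10-fold). These were the 4 members with changes above 3-fold, 3 of them the copies with similar promoters.

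Over the same interval Ugt2b1 rose in males by 1.37 and 0.99 (2.26-fold, adjusted p = 0.00118), Ugt2b36 by 1.07 and 1.21 (2.20-fold, adjusted p = 0.000161) and Ugt2a3 by 1.10 and 0.94 (2.03-fold, adjusted p = 0.00126). Ugt2b35 rose by 0.60 and 0.74 (1.59-fold, adjusted p = 0.00173). Ugt3a2 rose by 0.70 and 0.61 (1.58-fold, adjusted p = 0.00442), a call that was lost without the first M8/M3 array (adjusted p = 0.0518). Ugt2b34 had 0.27 and 0.18 (1.17-fold, adjusted p = 0.0948). All 20 array values of the members were above 0, and their median was 1.16, against 0.01 over all genes tested.

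From 4 wk to 8 wk 6 members rose in male liver: Ugt2b1, Ugt2b5, Ugt2b36, Ugt2b37, Ugt2b38 and Ugt3a1 (10.8% of all genes tested were called in M8/M4, 4.46% as higher and 6.39% as lower at 8 wk). Ugt2b1 had 0.94 and 1.14 (2.06-fold, adjusted p = 0.00183), close to its 2.26-fold rise from 3 wk. Ugt2b5 had 0.88 and 1.05 (1.95-fold, adjusted p = 0.00205), Ugt2b38 had 0.83 and 1.11 (1.96-fold) and Ugt2b37 had 0.94 and 0.85 (1.86-fold). With the shared pools in the covariance, the call of Ugt2b5 was lost (adjusted p = 0.0824). Ugt3a1 had 0.74 and 0.95 (1.80-fold) and Ugt2b36 had 0.58 and 0.81 (1.62-fold). Ugt2b35, at 0.47 and 0.27 (1.29-fold, adjusted p = 0.0173), and Ugt2a3, at 0.42 and 0.39 (1.32-fold, adjusted p = 0.0412), passed the p threshold but not the fold threshold (29.6% of all genes tested passed p with any fold). Ugt2b35 no longer passed p with the shared pools in the covariance (adjusted p = 0.0622), and Ugt2a3 without the dye term (adjusted p = 0.163).

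In female liver 5 members rose from 3 wk to 8 wk and none fell (11.7% of all genes tested were called in F8/F3, 5.09% as higher and 6.65% as lower at 8 wk). Ugt3a1 rose by 1.44 and 1.45 (1.45 ± 0.07, 2.73-fold, adjusted p = 0.000159) and Ugt2a3 by 1.14 and 1.05 (1.09 ± 0.10, 2.13-fold, adjusted p = 0.000990). Ugt3a2 rose by 0.55 and 0.98 (1.70-fold, adjusted p = 0.00248). The 3 members outside the Ugt2b group thus rose in both sexes.

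Among the Ugt2b genes Ugt2b37 rose in female liver by 0.83 and 0.53 (1.61-fold, adjusted p = 0.000982) and Ugt2b5 by 0.80 and 0.55 (1.60-fold, adjusted p = 0.00803). Ugt2b5 lost its call with the shared pools in the covariance (adjusted p = 0.223), and both genes lost it without the first F8/F3 array (log2 ratio 0.46, adjusted p = 0.0770, for Ugt2b5, and 0.58, under 1.5-fold, for Ugt2b37). Ugt2b38 had 0.66 and 0.45 (1.47-fold, adjusted p = 0.0108) and Ugt2b36 had 0.38 and 0.41 (1.31-fold, adjusted p = 0.00598), both under 1.5-fold (33.7% of all genes tested passed p with any fold). With the shared pools in the covariance neither passed p, at 0.0895 for Ugt2b38 and 0.109 for Ugt2b36 after adjustment. Ugt2b1 had 0.16 and -0.08, Ugt2b34 had 0.08 and -0.15, and Ugt2b35 had -0.18 and -0.21 (adjusted p = 0.134), and none of these 3 passed the test.

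From 4 wk to 8 wk Ugt3a1 was the single member called in female liver, with 1.14 and 1.09 (1.12 ± 0.07, 2.17-fold, adjusted p = 0.000331) (6.02% of all genes tested were called in F8/F4, 2.29% as higher and 3.73% as lower at 8 wk). Ugt2a3, at 0.69 and 0.33 (1.42-fold, adjusted p = 0.0175), and Ugt3a2, at 0.29 and 0.48 (1.30-fold, adjusted p = 0.0339), passed the p threshold with smaller changes (21.3% of all genes tested passed p with any fold). Without the dye term neither passed (adjusted p = 0.0821 for Ugt2a3 and 0.0623 for Ugt3a2). The 7 Ugt2b genes had log2 ratios from -0.26 (Ugt2b35) to 0.24 (Ugt2b38), and none passed the p threshold.

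Whether the change with age differed between the sexes was tested as the male change minus the female change in the same fit. From 3 wk to 8 wk the male rise was larger for Ugt2b1, Ugt2b5, Ugt2b35, Ugt2b36, Ugt2b37 and Ugt2b38, the 6 genes that were higher in adult males (3.38% of all genes tested were called, 1.64% as larger and 1.74% as smaller in males). The difference was 1.14 ± 0.16 for Ugt2b1 (adjusted p = 0.0149), 1.08 ± 0.09 for Ugt2b37 (adjusted p = 0.00273) and 1.08 ± 0.14 for Ugt2b38 (adjusted p = 0.0107) on the log2 scale. For Ugt2b5 it was 1.05 ± 0.15 (adjusted p = 0.0164), for Ugt2b35 0.87 ± 0.10 (adjusted p = 0.00860) and for Ugt2b36 0.74 ± 0.08 (adjusted p = 0.00757). It was 0.26 ± 0.10 for Ugt2b34, 0.28 ± 0.11 for Ugt3a1, -0.07 ± 0.14 for Ugt2a3 and -0.11 ± 0.13 for Ugt3a2, none of which passed (adjusted p from 0.222 to 0.917).

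M8/M3 and F8/F3 were scanned on different days. The same quantity taken from the sex comparisons, all scanned on the first day, was 0.99 for Ugt2b1, 1.14 for Ugt2b5, 0.86 for Ugt2b35, 0.66 for Ugt2b36, 1.01 for Ugt2b37 and 0.96 for Ugt2b38, and all 6 passed there too. These arrays may carry the same pools of RNA, so they are not an independent check. With the shared pools in the covariance 3 of the 6 passed: Ugt2b1 (adjusted p = 0.0443), Ugt2b35 (adjusted p = 0.0354) and Ugt2b37 (adjusted p = 0.0311). Without the second M8/M3 array, or without the second F8/F3 array, 2 passed, Ugt2b36 and Ugt2b37, and without the first F8/F3 array 4 did.

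From 4 wk to 8 wk the male rise was larger for Ugt2b1, by 1.16 ± 0.16 (adjusted p = 0.0266), Ugt2b37, by 0.67 ± 0.09 (adjusted p = 0.0228), and Ugt2b35, by 0.63 ± 0.10 (adjusted p = 0.0396) (1.33% of all genes tested were called, 0.752% as larger and 0.58% as smaller in males). Ugt2b5, at 0.79 ± 0.15 (adjusted p = 0.0692), and Ugt2b38, at 0.73 ± 0.14 (adjusted p = 0.0619), did not pass, and Ugt2b36, at 0.52 ± 0.08 (adjusted p = 0.0377), was under 1.5-fold. None passed with the shared pools in the covariance. None passed either without one of the M4/F4 arrays, one of the F8/F4 arrays or the second M8/M4 array. The count was 1 without one of the M8/F8 arrays, one of the F8/F3 arrays or the first M8/M4 array, and 2 without one of the M8/M3 arrays.

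**Figure D3:**
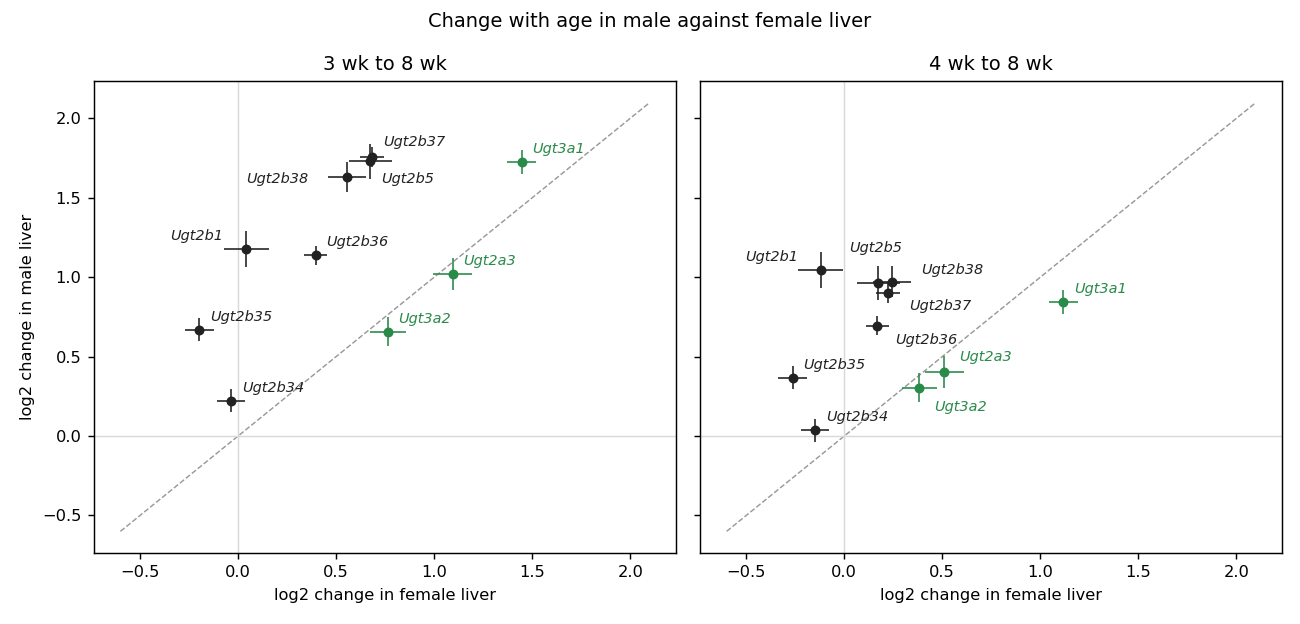
Log2 change to 8 wk in male liver (vertical axis) against that in female liver (horizontal axis), from 3 wk on the left and from 4 wk on the right; bars are standard errors of the fit, black marks Ugt2b genes and green marks Ugt2a3, Ugt3a1 and Ugt3a2, and the dashed line marks equal change. The 6 male-predominant Ugt2b genes stand farthest above the line on the left, with Ugt2b1 at 1.18 in males and 0.04 in females, while Ugt2a3 lies near it at 1.02 and 1.09.

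Second probes were present for 2 genes. The dimmer probe of Ugt2b35 gave 1.10 and 1.46 in M8/F8 (2.43-fold) and 1.06 and 1.12 in M8/M3 (2.13-fold), larger than the brighter one, and was called in M8/M4 as well (0.67 and 0.74, adjusted p = 0.00492). The dimmer probe of Ugt3a2 was called in F8/F3 (0.62 and 0.87, adjusted p = 0.0153) but not in M8/M3 (0.40 and 0.61, adjusted p = 0.0619). Both probes of each gene had the same direction in every call. They differed elsewhere: for the dimmer Ugt2b35 probe F8/F3 was 0.22 and -0.13, and its mean levels were -0.36 in F3 and -0.34 in F8, with overlapping pools.

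Profiles were compared as the Pearson correlation of the dye-corrected log2 ratios over the 14 arrays, which may share pools and share groups, and so are not independent points. Ugt2b5, Ugt2b36, Ugt2b37 and Ugt2b38 had r of 0.970 to 0.990 among themselves, and Ugt2a3, Ugt3a1 and Ugt3a2 had 0.893 to 0.953, against 0.178 to 0.534 between both sets. Ugt2b1 had 0.820 (Ugt2b37) to 0.887 (Ugt2b36) with the first set, Ugt2b34 had 0.762 (Ugt2b36) to 0.856 (Ugt2b5) and Ugt2b35 had 0.599 (Ugt2b37) to 0.684 (Ugt2b5), so the Ugt2b genes were not sharply divided. Ugt2b1 and Ugt2b35 had 0.736 with each other. Among 3534 genes that are not members and were called in at least 1 comparison, the profile of Ugt2b1 was most like those of Dpy19l3 (r = 0.983) and Obp2a (0.970), that of Ugt2b5 like Slc39a11 (0.970) and Gdpd1 (0.966), and that of Ugt2b35 like Osgin1 (0.975) and Slc25a33 (0.971). P2rx4 came first for Ugt2b36 (0.987), Ugt2b37 (0.982) and Ugt2b38 (0.984), followed by Cyp2d11 (0.964), Tab3 (0.974) and Slc39a11 (0.980). Sult1b1, a cytosolic sulfotransferase, came first for Ugt2a3 (0.989), before Zfp354a (0.982). Klf11 (0.986) and Rasgef1b (0.982) were nearest to Ugt3a1, Bbs10 (0.993) and Hs1bp3 (0.987) to Ugt3a2, and Col5a3 (0.915) and Zbtb42 (0.885) to Ugt2b34.

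Of 39 other genes of glucuronidation listed, 32 had a named probe and 11 were called in at least 1 comparison (23.2% of all genes tested). Without the fold threshold 18 of the 32 passed in at least 1 comparison, beside 56.3% of all genes tested. None of the 4 other UDP-glycosyltransferases measured (Ugt1a6a, Ugt1a10, Ugt2a1 and Ugt8a) was called. Ugt1a6a, a phenol-conjugating enzyme of the Ugt1 family, had log2 ratios of 0.35 in M8/M3 (adjusted p = 0.0183) and 0.48 in F8/F3 (adjusted p = 0.00547), under 1.5-fold, and -0.24 in M8/F8 (adjusted p = 0.0689).

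The list of genes around UDP-glucuronic acid held 9, not all of which make or carry it. Of these, Ugdh, the UDP-glucose dehydrogenase that makes it, rose in male liver from 3 wk by 1.46 and 1.70 (adjusted p = 0.00114) and from 4 wk by 1.08 and 1.10 (adjusted p = 0.00459). It rose in female liver from 3 wk by 1.01 and 0.62 (adjusted p = 0.0140) and was higher in males at 8 wk, at 0.63 and 1.19 (adjusted p = 0.00922). Ugp2, which makes UDP-glucose, rose in female liver from 3 wk (0.66 and 0.51, adjusted p = 0.00319). Slc35b1, of a family of nucleotide sugar carriers, fell in female liver from 3 wk (-0.55 and -1.01, adjusted p = 0.00812) and from 4 wk (-0.59 and -0.60, adjusted p = 0.0220). The other 6 genes of this list were called in no comparison.

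Of the 2 deconjugation genes, Ces1e, known as the carboxylesterase that retains β-glucuronidase in the endoplasmic reticulum, was higher in males at 4 wk (0.73 and 0.50, adjusted p = 0.0264) and 8 wk (1.00 and 0.96, adjusted p = 0.00443). It rose in male liver from 3 wk by 1.31 and 1.24. Gusb, β-glucuronidase itself, was not called.

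Of the 7 transporters, 5 were called. Abcg2, an exporter into bile, was higher in males at 8 wk (1.26 and 1.32, adjusted p = 0.000107) and rose in male liver from 3 wk (0.77 and 0.58). Abcc3, an exporter of conjugates into blood, rose from 3 wk in male liver (1.66 and 1.78, adjusted p = 0.000130) and in female liver (1.16 and 1.28, adjusted p = 0.000348). Of the uptake carriers, Slco1a1 was higher in males at 8 wk (0.55 and 0.78, adjusted p = 0.0168) and Slco1a4 lower (-2.03 and -1.45, adjusted p = 0.00326), with a fall in male liver from 3 wk (-1.93 and -1.02). Slco1b2 rose in male liver from 3 wk (1.17 and 0.68, adjusted p = 0.0374).

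Of the 10 regulators of Ugt genes, Nr1i3, the receptor CAR, was lower in males at 8 wk (-0.50 and -0.74, adjusted p = 0.00383) and rose in female liver from 3 wk (0.61 and 1.03, adjusted p = 0.00135). Ahr, the dioxin receptor, fell in male liver from 3 wk (-0.74 and -0.69, adjusted p = 0.00480). The other 8 were not called. The transcripts around the enzymes moved in both directions. Of the members, 9 rose in M8/M3, where 7.84% of all genes tested were called as higher. In M8/F8, 6 were higher in males, against 2.67% of all genes tested.

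**Figure D4:**
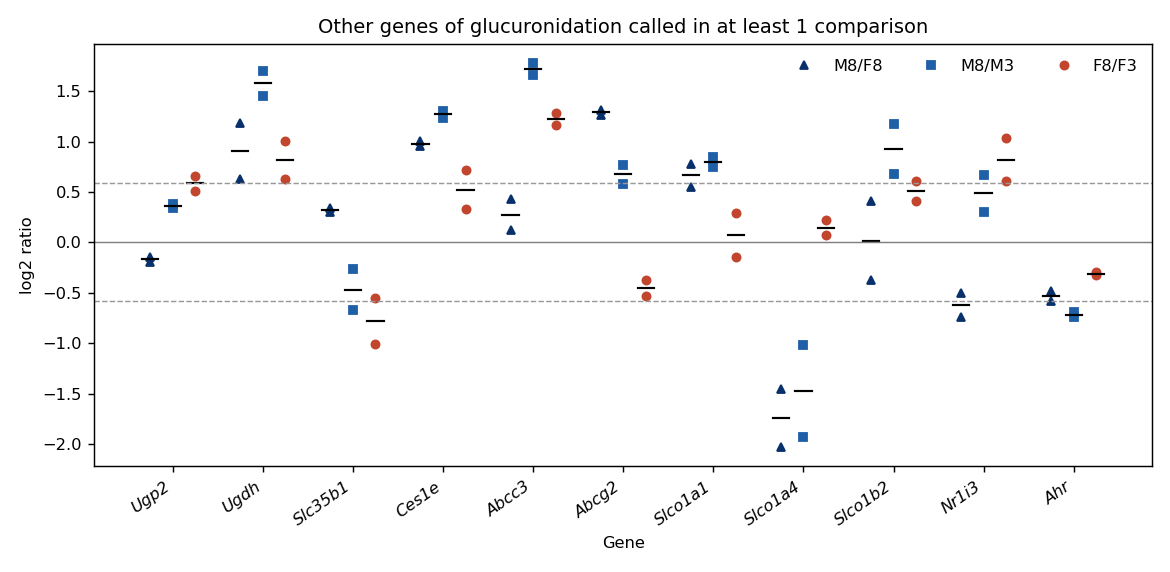
Log2 ratio (vertical axis) of the 11 other glucuronidation genes called in at least 1 comparison, for M8/F8, M8/M3 and F8/F3; points are the 2 arrays, black bars fitted means, and dashed lines 1.5-fold in either direction. Ugdh, Ces1e, Abcg2 and Slco1a1 are above 0 on both arrays in M8/F8 and M8/M3, and Slco1a4 is below 0 there.

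Markers of other liver cells moved in the same comparisons, and their part in the results was not tested. Of the 4 macrophage markers measured, 3 (Clec4f, Adgre1 and Marco) were lower in males at 8 wk, and the summed macrophage signal was 9688 to 14924 in M8 and 16201 to 24166 in F8. The summed signal of the 5 bile duct markers was 4520 to 6864 in M8 and 3018 to 4474 in F8, without overlap. None of the 5 bile duct, 5 endothelial, 4 mesenchymal or 3 lymphocyte markers tested was called in M8/F8, and 1 of 3 erythroid markers, Alas2, was higher in males. The summed signal of the 4 erythroid markers measured was 9007 to 12953 in M8, 2279 to 3554 in F8 and 2767 to 5459 in M3. Among these 4, Alas2 was called as higher and 2, Slc4a1 among them, as lower in M8/M3 (median log2 ratio -0.89). In F8/F3, 2 were called as lower, again with Slc4a1, and none as higher (median log2 ratio -0.94). The median log2 ratio of the 8 hepatocyte markers in M8/F8 was -0.31, with none called, and their summed signal was 641722 to 993682 in M8 and 764127 to 1158786 in F8. In M4/F4 the bile duct sums were 4411 to 7652 in M4 and 2891 to 3996 in F4, with 1 of 5 markers called as higher in males, and the erythroid sums 3917 to 5709 and 2390 to 3740, with 1 of 4 called as higher. The 5 kidney and gut markers, of which 1 was above background often enough to be tested in M4/F4 and was not called, summed to 21551 to 29857 in M4 and 12923 to 18036 in F4, and to 15372 to 22925 in M8 and 14266 to 23492 in F8. Among the hepatocyte markers Serpina1a was called as higher and Alb as lower in M8/M3, while none was called in F8/F3. Over the 4 macrophage markers 2 were lower in M8/M3 against 1 in F8/F3. Over the 5 mesenchymal markers the counts were 2 and 1. Bile duct markers gave 2 and 1 of 5, and endothelial markers 1 and 1 of 5.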

How the data were processed

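Per the labels and the methods of the study, livers were frozen, RNA was extracted, pooled, amplified, labelled with a green or a red Alexa dye, and hybridized to 14 Agilent 4x44k arrays. The deposited scanner files of the authors hold intensities processed by Agilent Feature Extraction, after subtraction of background and dye normalization (linear and LOWESS), and the log10 ratio of red over green with its log10 error. Dyes were taken from the labels: the wording of the methods gives replicate 1 the opposite dyes, and the Y-linked genes and Xist followed the labels on every sex comparison array.

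Ratios were converted to log2, turned to male over female or older over younger, and averaged over the spots of a probe. Genes were named through RefSeq accessions (26055 probes), with the brightest probe for each gene. Differences were tested with limma 3.58.1 in R 4.3.3, with 7 comparison terms and 1 dye term over 39429 probes and Benjamini-Hochberg adjustment over all probes and the 7 comparisons, or within each interaction. Each value rests on 2 arrays, whose number limits its precision. The fit treats arrays as independent, although pools of a replicate number may be used again across comparisons: after group effects were removed by subtracting array 2 from array 1, M8/M3 minus F8/F3 and M8/F8 minus M3/F3 had r = 0.913 over 20451 probes. What part of this r came from the slide, which coincides with the number within a scan day, was not tested. A covariance with shared pools, with the pool variance estimated at 4.58 times the array variance, was therefore an alternative. Group levels were solved by least squares from the 7 ratios of each replicate number. On simulated data with such pools, the fit found 88.8% of the planted log2 changes of 1 in M8/F8, with 4.8 false calls on average among 20451 probes. Other alternatives were the dye term, thresholds, error-weighted averaging, group means, replicate and slide blocks, normexp with loess, the filter on dim probes, other probes and leaving out each array. Promoter windows of RefSeq (GRCm38.p6) were searched on both strands and aligned with Biopython; 1 of the motifs searched is not reported here. All members were named, pathway genes where called, and the 2 most alike genes per member. The members and lists were chosen with earlier results of these data known.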

Additional observations from a re-analysis of the deposited data

Results flagged for a closer look

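The change with age differed between male and female liver by the test of the difference itself for 6 Ugt2b genes. From 3 wk to 8 wk the male log2 change exceeded the female one by 1.14 for Ugt2b1, 1.05 for Ugt2b5, 0.87 for Ugt2b35, 0.74 for Ugt2b36, 1.08 for Ugt2b37 and 1.08 for Ugt2b38. From 4 wk to 8 wk it did so by 1.16 for Ugt2b1, 0.63 for Ugt2b35 and 0.67 for Ugt2b37. Of all genes tested, 3.38% and 1.33% were called in these tests. With the shared pools in the covariance Ugt2b1, Ugt2b35 and Ugt2b37 passed from 3 wk and none passed from 4 wk. In each of the 9 differences given first the value was above 0 for both replicate numbers.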

How the results depend on the processing

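No member changed direction in a called value under the alternatives run, and the counts in M8/F8 (6) and M8/M3 (9) stayed within 1.5 times. At a 2-fold threshold Ugt2b36 dropped out of M8/F8, and Ugt2b35 and Ugt3a2 out of M8/M3, and at an unadjusted p below 0.0001 Ugt3a2 dropped out of M8/M3. The interaction from 3 wk to 8 wk had 3 members at an unadjusted p below 0.0001 and 3 with shared pools in the covariance, in place of 6. That from 4 wk to 8 wk had 0 under both, 1 with the slide as a block, 1 at a 2-fold threshold, and 5 with group means, with normexp and loess and with the fit on 27390 probes above background (added after seeing the data), in place of 3. Without a fold threshold 6 members were called in M4/F4, 3 in F8/F4 and 18 pathway genes, in place of 0, 1 and 11, beside 7.91%, 21.3% and 56.3% of all genes tested. At a 2-fold threshold 1 member was called in M8/M4 and 2 in F8/F3, in place of 6 and 5, and at an unadjusted p below 0.0001 5 pathway genes were called. With each array left out, calls ran from 0 to 0 in M3/F3 and M4/F4, 6 to 6 in M8/F8 and M8/M4, 8 to 9 in M8/M3, 3 to 6 in F8/F3 and 1 to 1 in F8/F4, and interactions from 2 to 6 and from 0 to 3.

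Within a scan day the replicate number coincides with the slide, and the slide block has a term for each day. With the replicate block, calls numbered 9 (M8/M3), 6 (M8/M4), 6 (M8/F8), 5 (F8/F3), 1 (F8/F4) and 0 (M3/F3 and M4/F4), with interactions of 6 and 2, so a block for the number, unlike the covariance with shared pools, left each count within 1.5 times.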
